A study of Homo sapiens with 6 samples.

Results

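The 10 genes described here encode the p38 MAP kinase pathway: the upstream kinase MAP3K5, the p38 kinase kinases MAP2K3 and MAP2K6, the p38 kinases MAPK14, MAPK11, MAPK12 and MAPK13, the p38-activated kinases MAPKAPK2 and MAPKAPK3, and the phosphatase DUSP1. They were chosen by name and matched on the gene symbol, and all 10 were found among the 21134 genes of the deposited table. After a filter on low counts 14926 genes were tested, 9 of the 10 among them. MAPK11 was the gene left out, with 6 to 11 counts per library.

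RNA was sequenced from cardiomyocytes that the labels call hiPSC-CMs and that were made from H9, a single line of human embryonic stem cells. The 2 control libraries came from untreated cells, the 2 alcohol libraries from cells given 100 mM alcohol for 24 h, and the 2 co-treated libraries from cells given 100 mM alcohol and 1 µM losartan for 24 h. Losartan blocks the type 1 angiotensin II receptor, and no library received losartan without alcohol. The paper's methods describe losartan as given with alcohol, while its results on RNA sequencing call it a pretreatment. The comparison of alcohol with control asks what alcohol does to these transcripts, and that of co-treated with alcohol asks what the receptor blocker adds.

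The p38 kinases are activated by phosphorylation in cells exposed to oxidants, cytokines or osmotic stress. MAP3K5, also called ASK1, is held inactive by reduced thioredoxin and passes oxidative signals to the kinase kinases MKK3 (MAP2K3) and MKK6 (MAP2K6), which phosphorylate p38. Active p38 in turn phosphorylates MK2 (MAPKAPK2) and MK3 (MAPKAPK3), and DUSP1 removes the phosphates from p38. RNA sequencing measures the transcripts only, so the values below carry no information on phosphorylation.

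None of the 9 genes tested changed at an adjusted p under 0.05 in any comparison (edgeR quasi-likelihood test). The lowest adjusted p was that of MAPKAPK3, 0.237 for alcohol against control, where its log2 difference was 0.39 ± 0.12 (SE). The libraries held 4898287 to 5051448 counts each, and 3 counts, the limit of detection used here, came to 0.594 to 0.612 CPM (counts scaled to library size). The labels do not say whether the 2 libraries of a group came from separate cultures, so the p-values measure only the spread between these libraries. In bulk RNA, fewer cells of a type and less RNA per cell cannot be told apart.

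The cells carried cardiomyocyte transcripts, with all 12 cardiomyocyte markers detected, among them TNNT2 at 3194 to 3728 FPKM. The summed FPKM of these markers was 30494 and 31054 in the control, 29154 and 22056 in the alcohol and 24880 and 27555 in the co-treated libraries. MYL7, at 9321 to 16180 FPKM, was the largest part of this sum. The sum of 4 smooth muscle markers was 1926 and 1689 in the control, 1451 and 722 in the alcohol and 991 and 1036 in the co-treated libraries, lower in every treated library. Alcohol replicate 2 was lowest in both sums. The 8 fibroblast markers summed to 421 to 518 FPKM, the 5 endoderm markers to 36.7 to 49.4, the 4 immune markers to 25.7 to 34.0, the 5 pluripotency markers to 10.4 to 19.3 and the 5 endothelial markers to 5.88 to 10.5. Some markers were near 0, with at most 5 counts in a library for VWF (endothelial), 4 for SOX2 (pluripotency), 3 for FOXA2 (endoderm) and 2 for CD14 (immune). LYZ, at 22.6 to 30.2 FPKM, made up most of the immune sum. The part of these marker differences in the results on p38 genes was not tested.

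On the FPKM scale, which divides the count by transcript length and by library size, the effector kinases were the most abundant of the 10 genes. Mean FPKM over the 6 libraries was 66.2 for MAPKAPK2, 37.2 for MAPKAPK3, 20.4 for MAPK14 and 10.4 for MAP2K3, and the ranges of MAPKAPK2, MAPKAPK3, MAPK14 and MAP2K3 did not overlap with one another. MAP2K6 (7.44), DUSP1 (6.92), MAPK12 (5.04) and MAPK13 (4.24) followed, and each neighbour in that order, from MAP2K3 to MAPK13, overlapped with the next. MAP3K5 (0.830) and MAPK11 (0.715) were lowest and overlapped with each other. These levels rest on the deposited lengths, which for MAP2K6 and MAPK13 are taken up below. Of all 21134 genes, 95.6% had a lower mean FPKM than MAPKAPK2, 83.4% a lower one than MAPK14 and 29.5% a lower one than MAP3K5.

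**Figure D1:**
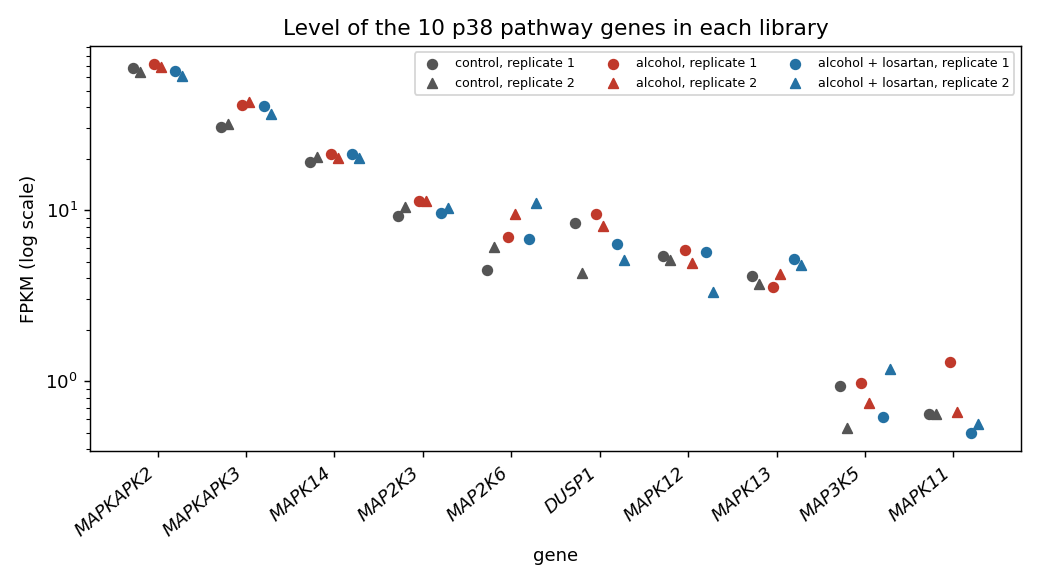
FPKM of the 10 p38 pathway genes in each of the 6 libraries, on a log axis, with 1 point per library coloured by group. MAPKAPK2, MAPKAPK3 and MAPK14 stand above the other genes in every library, and MAP3K5 and MAPK11 lie near or below 1 FPKM.

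The upstream kinase MAP3K5 (chromosome 6, 136557046 to 136793091 of GRCh38.p14) was at the low end of the range. Its counts were 25 and 14 in the control, 26 and 19 in the alcohol and 16 and 31 in the co-treated libraries. Groups overlapped in every comparison. The log2 difference between alcohol and control was 0.19 ± 0.45 (SE), with a 95% interval from -0.80 to 1.17. Annotated antisense genes, MAP3K5-AS1 and MAP3K5-AS2, overlap it, and reads of the 2 strands cannot be told apart where counting did not use strand.

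Of the kinase kinases, MAP2K3 (chromosome 17, 21284711 to 21315240) measured 9.24 and 10.39 FPKM in the control, 11.27 and 11.35 in the alcohol and 9.60 and 10.35 in the co-treated libraries. Both alcohol libraries lay above the other 4. The differences were 0.17 ± 0.17 on the log2 scale for alcohol against control and -0.21 ± 0.17 for co-treated against alcohol (SE), with unadjusted p of 0.341 and 0.240 and adjusted p of 0.781 and 0.936 in edgeR's test.

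MAP2K6 (chromosome 17, 69414697 to 69553865) showed the largest log2 difference of the 9 genes. It measured 4.44 and 6.05 FPKM in the control (42 and 57 counts), 6.98 and 9.48 in the alcohol (66 and 87 counts) and 6.76 and 10.95 in the co-treated libraries (62 and 103 counts). All 4 libraries with alcohol lay above both controls, and the alcohol and co-treated groups overlapped. Against control the log2 difference was 0.61 ± 0.28 in alcohol (95% interval -0.0080 to 1.22, unadjusted p = 0.0526, adjusted p = 0.456) and 0.71 ± 0.28 in co-treated cells (95% interval 0.10 to 1.32, unadjusted p = 0.0254, adjusted p = 0.311), both by edgeR. These comparisons share the control libraries. In co-treated cells it was 0.31 when replicate 2 of that group was left out and 1.03 when replicate 1 was, and that in alcohol was 0.43 without control replicate 1 and 0.84 without control replicate 2. Over 14 alternative settings the adjusted p ran from 0.288 to 0.965 for alcohol and from 0.176 to 0.810 for co-treated cells against control. For alcohol against control DESeq2 gave MAP2K6 no adjusted p. An annotated antisense gene, MAP2K6-AS1, overlaps MAP2K6.

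Within the kinase kinase pair, MAP2K3 made up 67.5% and 63.2% of the summed FPKM in the control, 61.8% and 54.5% in the alcohol and 58.7% and 48.6% in the co-treated libraries. The control libraries were the highest, and co-treated replicate 2 was the only library in which MAP2K6 exceeded MAP2K3. Shares are given as a description with no test, and an exact permutation test of 2 against 2 libraries can give no two-sided p below 0.333. The deposited length of MAP2K6 was 1879 bases in every library, while the RefSeq transcript NM_002758 is 13400 bases long in GENCODE 29, so the level of MAP2K6 relative to MAP2K3 depends on the transcript assumed. The deposited length was the same in every library, so dividing by it does not alter the comparisons of MAP2K6 between groups. Whether counts on a longer transcript would alter them was not tested.

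The 4 p38 genes form neighbouring pairs in the genome. MAPK14 (p38α, 36027808 to 36124214) and MAPK13 (p38δ, 36130513 to 36144521) lie on chromosome 6 with 6298 bases between them, and MAPK12 (p38γ, 50252901 to 50261683) and MAPK11 (p38β, 50263713 to 50270380) lie on chromosome 22 with 2029 bases between them. By the deposited lengths, members of a pair did not have like levels, since mean FPKM was 20.4 for MAPK14 and 4.24 for MAPK13. The size of this gap depends on the MAPK13 length used.

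MAPK14 measured 19.10 and 20.32 FPKM in the control, 21.31 and 20.28 in the alcohol and 21.18 and 20.23 in the co-treated libraries. The 3 groups overlapped and their means were 19.7 ± 0.863, 20.8 ± 0.728 and 20.7 ± 0.672 FPKM (SD, n = 2 each). Log2 differences were 0.05 for alcohol against control (95% interval -0.21 to 0.31), -0.05 for co-treated against alcohol (-0.31 to 0.21) and -0.0014 for co-treated against control (-0.26 to 0.26). All 3 intervals of MAPK14, the widely expressed p38 isoform, ended within 0.31 of 0.

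MAPK12, which is abundant in striated muscle, measured 5.40 and 5.10 FPKM in the control, 5.84 and 4.91 in the alcohol and 5.68 and 3.30 in the co-treated libraries. Only co-treated replicate 2 stood below the others. Without it the log2 difference between co-treated and control cells was 0.05, and with it -0.28, with an unadjusted p of 0.375 and an adjusted p of 0.768 by edgeR.

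MAPK13 measured 4.10 and 3.68 FPKM in the control, 3.56 and 4.22 in the alcohol and 5.14 and 4.76 in the co-treated libraries. Both co-treated libraries lay above the other 4, while the control and alcohol libraries overlapped. The log2 difference was 0.36 ± 0.17 (SE) for co-treated against alcohol (95% interval -0.0011 to 0.72, unadjusted p = 0.0506, adjusted p = 0.897) and 0.31 ± 0.17 for co-treated against control (unadjusted p = 0.0861, adjusted p = 0.478), by edgeR, and the co-treated libraries serve in both. The unadjusted p for co-treated against alcohol was not under 0.05 in any of 14 alternative settings. The deposited length of MAPK13 was 6242 to 6348 bases, while in GENCODE 29 the transcript NR_072996 has 6196 bases and NM_002754, the coding RefSeq entry, 2052. The deposited lengths were all above both.

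MAPK11 was near the limit of detection, at 0.64 and 0.64 FPKM in the control, 1.29 and 0.66 in the alcohol and 0.50 and 0.56 in the co-treated libraries. Alcohol replicate 1 had the highest FPKM, with 11 counts against 8 in alcohol replicate 2, and its deposited transcript length was 1697 bases against 2463 in the other 5 libraries. No test was made.

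By the deposited lengths, MAPK14 accounted for most of the p38 transcripts. It held 65.3% and 68.3% of the summed FPKM of the 4 genes in the control, 66.6% and 67.4% in the alcohol and 65.2% and 70.1% in the co-treated libraries. The MAPK13 length used was above both of its transcript lengths in GENCODE 29. A shorter length would raise the MAPK13 share and lower that of MAPK14. MAPK12 held on average 17.8%, 17.3% and 14.5% in the 3 groups, MAPK13 13.2%, 12.6% and 16.2%, and MAPK11 2.17%, 3.11% and 1.74%. The order of MAPK12 and MAPK13 rests on the length scaling, since by expected counts MAPK12 held 8.04%, 7.84% and 6.42% and MAPK13 20.3%, 19.3% and 24.4%. The sum of the 4 genes was 29.2 and 29.7 FPKM in the control, 32.0 and 30.1 in the alcohol and 32.5 and 28.9 in the co-treated libraries, so the co-treated libraries spanned both controls.

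**Figure D2:**
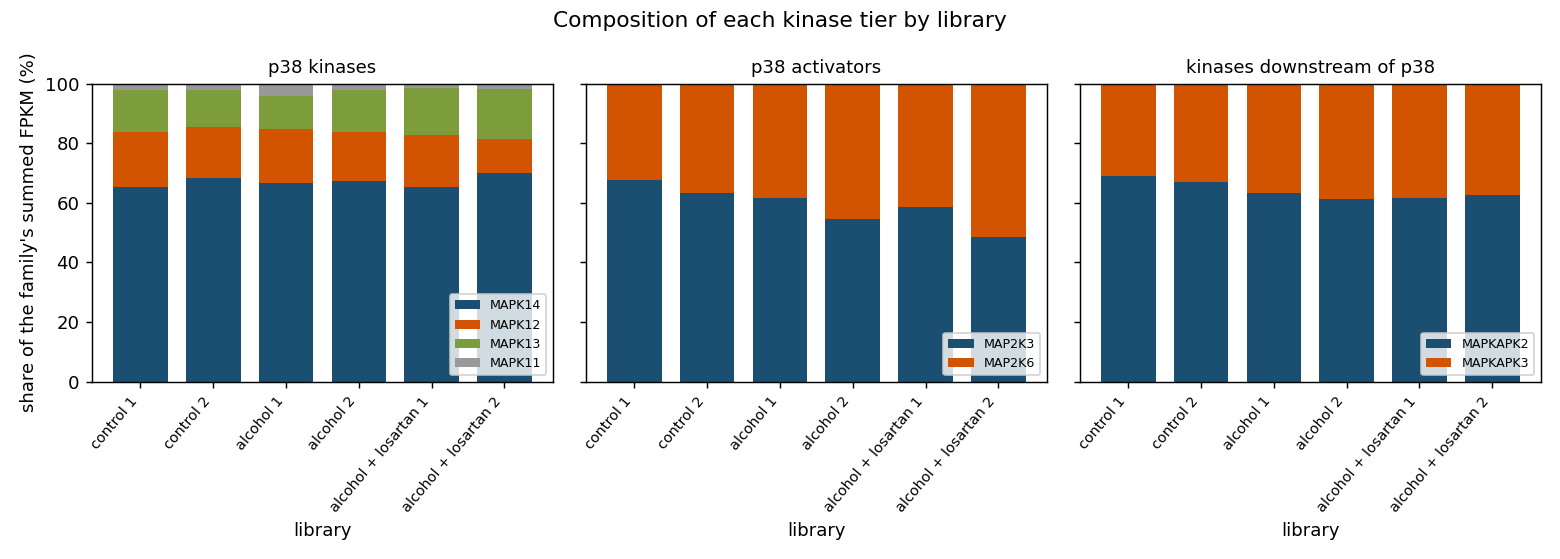
Share in percent of the summed FPKM of each gene group that came from each of its members, per library, for the 4 p38 genes, the 2 kinase kinases and the 2 p38-activated kinases. MAPK14 holds 65.2% to 70.1% of the p38 sum in all 6 libraries, and the MAPKAPK2 share is highest in the 2 controls.

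Of the effector kinases, MAPKAPK2 (chromosome 1, 206684905 to 206734281), which phosphorylates HSPB1 and the mRNA-binding protein ZFP36, measured 67.96 and 64.09 FPKM in the control, 71.16 and 68.44 in the alcohol and 65.31 and 60.48 in the co-treated libraries. Both alcohol libraries exceeded both co-treated ones. Log2 differences were 0.04 ± 0.12 for alcohol against control and -0.16 ± 0.12 for co-treated against alcohol (SE), with adjusted p of 0.932 and 0.923 by edgeR.

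MAPKAPK3 (chromosome 3, 50611520 to 50649291) had the lowest p of the 9 genes for alcohol against control. It measured 30.64 and 31.83 FPKM in the control (398 and 411 counts), 41.07 and 42.95 in the alcohol (532 and 542 counts) and 40.63 and 36.31 in the co-treated libraries (512 and 469 counts). All 4 libraries with alcohol lay above both controls, and both co-treated libraries lay below both alcohol libraries. The log2 difference was 0.39 ± 0.12 (SE) for alcohol against control (95% interval 0.14 to 0.64, unadjusted p = 0.00558, adjusted p = 0.237) and 0.26 ± 0.12 for co-treated against control (95% interval 0.0008 to 0.51, unadjusted p = 0.0494, adjusted p = 0.394), by edgeR, with the same controls in both. The unadjusted p for co-treated against control was under 0.05 in 6 of 14 alternative settings and ran from 0.0270 to 0.170. For co-treated against alcohol the difference was -0.13 (95% interval -0.38 to 0.12, unadjusted p = 0.271, adjusted p = 0.938). Over 14 alternative settings the difference between alcohol and control stayed between 0.39 and 0.43, with an unadjusted p under 0.05 in 14 of 14 and an adjusted p from 0.178 to 0.774. The annotation places CISH in the same stretch of chromosome 3, and reads in the overlap of the 2 genes cannot be told apart where counting did not use strand.

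MAPKAPK2 made up 68.9% and 66.8% of the summed FPKM of this pair in the control, 63.4% and 61.4% in the alcohol and 61.6% and 62.5% in the co-treated libraries. The ratio of MAPKAPK2 to MAPKAPK3 was 2.22 and 2.01 in the control, 1.73 and 1.59 in the alcohol and 1.61 and 1.67 in the co-treated libraries. Both controls lay above the other 4 libraries. The shares and ratios of this pair were not tested either.

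**Figure D3:**
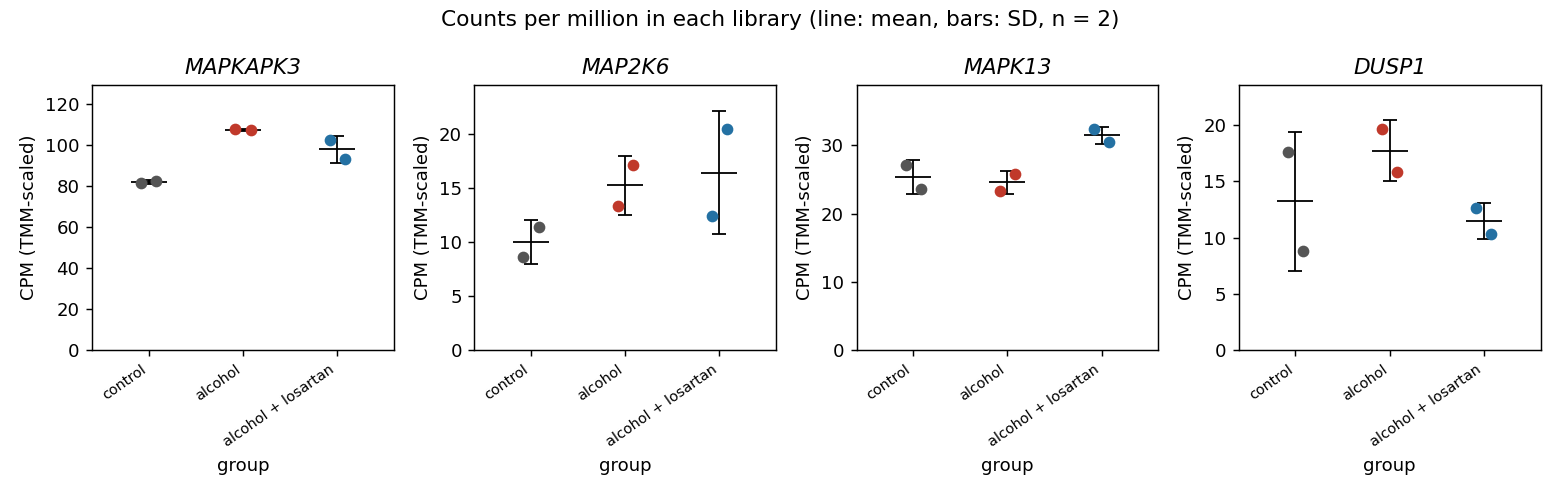
CPM of MAP2K6, MAPKAPK3, DUSP1 and MAPK13 in each library by group, with the group mean as a line and the SD (n = 2) as a bar. MAPKAPK3 and MAP2K6 are higher in the 4 libraries with alcohol than in both controls, DUSP1 differs most between the 2 controls, and MAPK13 is highest in the 2 co-treated libraries.

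DUSP1 (chromosome 5, 172768096 to 172771195), an immediate early gene whose product switches p38 off, varied most between control libraries. It measured 8.36 and 4.29 FPKM in the control (86 and 44 counts), 9.43 and 8.02 in the alcohol (97 and 80 counts) and 6.32 and 5.08 in the co-treated libraries (63 and 52 counts). Both alcohol libraries lay above both co-treated libraries, and the controls spanned most of that range. The log2 difference between co-treated and alcohol was -0.63 ± 0.29 (SE, 95% interval -1.26 to 0.0090, unadjusted p = 0.0529, adjusted p = 0.899 by edgeR), and over 14 alternative settings it ran from -0.78 to -0.47, with an unadjusted p under 0.05 in 5 and an adjusted p from 0.628 to 1.00. Against control the alcohol difference was 0.42 ± 0.29 (unadjusted p = 0.167, adjusted p = 0.654), but it was 1.01 without control replicate 1 and 0.02 without control replicate 2. The co-treated difference from control was -0.20 ± 0.30, and it turned to 0.38 without control replicate 1.

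The upstream sequences of DUSP1 and of the genes with the lowest unadjusted p against control, MAP2K6 and MAPKAPK3, are shown because p38 and MAPKAPK2 act on CREB and ATF1, which bind the cAMP response element. They were chosen after the values were seen. That of MAPKAPK3 precedes a listed start but lies within the annotated gene, which begins at 50611520. Each runs for 250 bases to the base before the transcription start, 5′ to 3′ on the gene's strand, from RefSeq on GRCh38.p14 (DUSP1 at chr5:172771196-172771445 on the minus strand, MAP2K6 at chr17:69414447-69414696 and the first listed start of MAPKAPK3 at chr3:50611627-50611876, both on the plus strand), and capitals mark TGACG on either strand.
DUSP1: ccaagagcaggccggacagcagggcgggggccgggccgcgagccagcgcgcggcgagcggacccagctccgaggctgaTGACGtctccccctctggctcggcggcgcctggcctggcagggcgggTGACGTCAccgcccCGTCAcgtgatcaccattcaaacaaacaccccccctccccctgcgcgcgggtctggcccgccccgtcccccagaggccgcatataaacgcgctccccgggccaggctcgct
MAP2K6: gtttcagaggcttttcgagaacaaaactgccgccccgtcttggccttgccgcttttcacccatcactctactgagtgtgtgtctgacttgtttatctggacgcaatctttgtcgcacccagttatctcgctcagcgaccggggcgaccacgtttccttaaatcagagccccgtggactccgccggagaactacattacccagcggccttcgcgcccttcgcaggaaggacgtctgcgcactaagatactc
MAPKAPK3: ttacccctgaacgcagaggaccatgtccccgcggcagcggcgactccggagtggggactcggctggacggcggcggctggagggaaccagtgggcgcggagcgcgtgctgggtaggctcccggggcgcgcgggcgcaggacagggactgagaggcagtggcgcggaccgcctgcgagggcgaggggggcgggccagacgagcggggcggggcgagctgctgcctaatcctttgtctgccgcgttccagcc

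The letters TGACG, the core of the cAMP response element, occurred 4 times upstream of DUSP1, beginning 172, 125, 122 and 111 bases before the start, and the matches at 125 and 122 overlap on opposite strands to form the full palindrome. The match at 111 overlaps a run of ACGTG on each strand, beginning at 108 and 107. No match to TGACG was found in the MAP2K6 and MAPKAPK3 sequences printed. The later start of MAP2K6 (250 bases at chr17:69502012-69502261) had none, and the later start of MAPKAPK3 had 1, beginning 88 bases before it. Of all 35116 RefSeq promoters, 21.2% held TGACG in the same 250 bases. Among the other motifs searched on both strands, the DUSP1 sequence held GGGCGG 4 times (42.6% of all promoters held it), ACGTG 2 times (18.5%) and CANNTG 1 time (61.8%), and it held no TGANTCA (6.57%), NF-kB (9.96%), CArG box (1.16%) or MEF2 match (2.80%). A match describes these letters only. A promoter sequence was found for 9 of the 10 genes, MAPKAPK2 being the gene not matched.

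**Figure D4:**
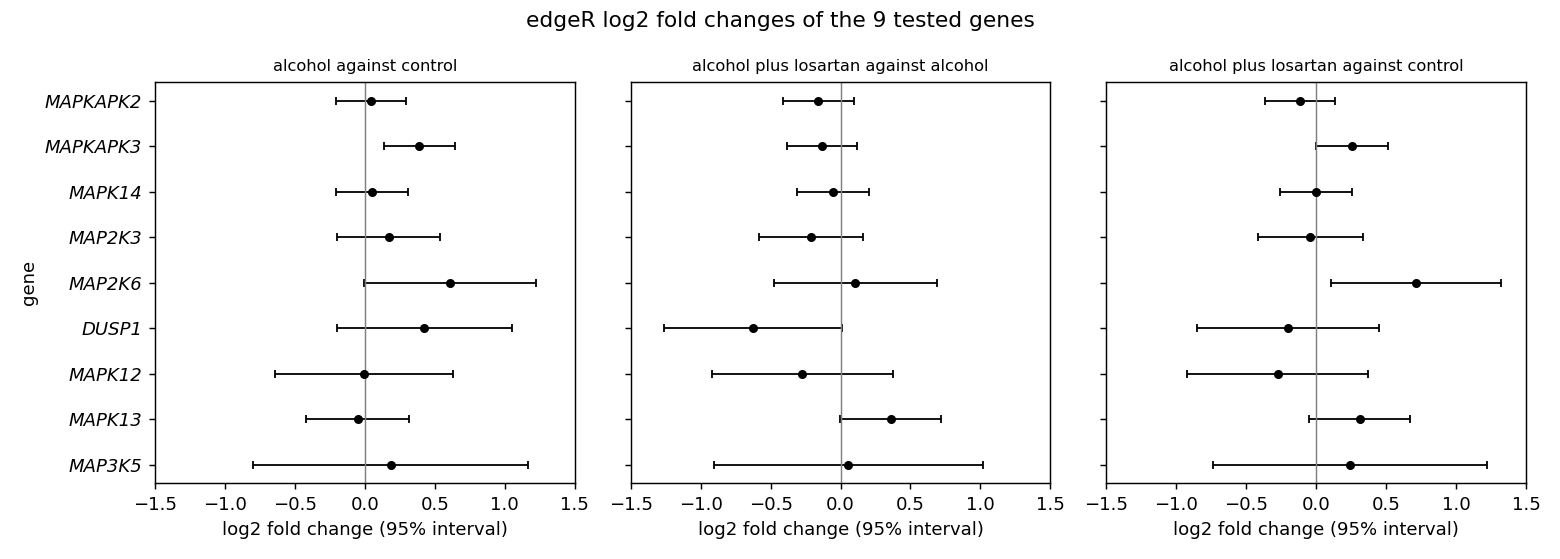
Log2 difference of the 9 tested genes in each of the 3 comparisons, with 95% intervals from edgeR's quasi-likelihood fit. Intervals that leave out 0 belong to MAPKAPK3 for alcohol against control (0.14 to 0.64) and to MAP2K6 and MAPKAPK3 for co-treated against control, and no adjusted p was under 0.05.

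Counted together for alcohol against control, 0 of the 9 genes were called at an adjusted p under 0.05 (0.0670% of all genes tested). At an unadjusted p under 0.05 there was 1 gene (11.0% of all genes tested), and 3 had groups that did not overlap in CPM, against 43.8% of all genes. All 3 were higher with alcohol (22.0% of all genes) and 0 were lower (21.8%). The 3 genes were MAPKAPK3, MAP2K6 and MAP2K3. The median log2 difference of the 9 genes was 0.17, against -0.0033 over all genes tested. By DESeq2 and by limma, 0 of the 9 genes were called. DESeq2 gave no adjusted p for MAP2K6, MAPK12 and MAP3K5 here, so it could not call these 3.

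For co-treated against alcohol, 0 of the 9 genes were called (0.0134% of all genes) and 0 reached an unadjusted p under 0.05 (5.55%), while 5 had groups that did not overlap (33.6%). MAPK13 was the 1 gene of these 5 that was higher in co-treated cells (17.4% of all genes), and DUSP1, MAP2K3, MAPKAPK2 and MAPKAPK3 were lower (16.2%). The median of the 9 genes was -0.13 on the log2 scale, against 0.0023 over all genes. DESeq2 and limma called 0 of the 9 genes here and for co-treated against control.

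For co-treated against control, 0 of the 9 genes were called (0.362% of all genes), while MAP2K6 and MAPKAPK3, 2 of the 9, reached an unadjusted p under 0.05 (12.6%) and 4 had groups that did not overlap (43.3%). MAP2K6, MAPKAPK3 and MAPK13 were higher (21.6% of all genes) and MAPKAPK2 was lower (21.7%). The median of the 9 genes was -0.0014, against -0.0017 over all genes. The 3 comparisons share libraries in pairs, so their counts are not independent of each other.

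Beyond the 10 genes, 87 of 89 listed genes of the p38 and neighbouring MAP kinase pathways were found, and 75 were tested. By the main edgeR fit 0 were called at an adjusted p under 0.05 in any comparison, by limma 0, and by DESeq2 1, which was IER3 for co-treated against control. Among the alternatives listed below, edgeR also called IER3 there with a replicate block and with only the libraries compared. DESeq2 gave CCL2 no adjusted p for alcohol against control. An unadjusted p under 0.05 was reached by 6 of the 75 genes for alcohol against control (8.00%, against 11.0% of all genes tested), 4 higher and 2 lower. It was reached by 4 for co-treated against alcohol (5.33%, against 5.55%), all lower, and by 7 for co-treated against control (9.33%, against 12.6%), 3 higher and 4 lower. None of these shares exceeded that of all genes. The deposited GO process text names p38MAPK for 0 genes.

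Among the 27 upstream kinases and adaptors tested, 0 had an unadjusted p under 0.05 for alcohol against control (against 11.0% of all genes tested). For co-treated against alcohol there was 1 (3.70%, against 5.55%), and for co-treated against control 1 (3.70%, against 12.6%). None of these shares exceeded that of all genes. In both of these comparisons the gene was GADD45G, whose stress-induced product activates the p38 upstream kinase MAP3K4. Its log2 difference between co-treated and control was -0.79 ± 0.32 (SE, unadjusted p = 0.0273, adjusted p = 0.320 by edgeR). GADD45G measured 5.93 and 8.93 FPKM in the control, 11.5 and 10.7 in the alcohol and 4.40 and 4.47 in the co-treated libraries, highest in both alcohol libraries and lowest in both co-treated ones. The log2 difference between co-treated and alcohol was -1.33 ± 0.30 (SE, unadjusted p = 0.000754, adjusted p = 0.471 by edgeR), and over 14 alternative settings the adjusted p ran from 0.245 to 1.00.

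Of the 7 phosphatases acting on p38 that were tested besides DUSP1, DUSP16 had a log2 difference of 0.35 for alcohol against control (unadjusted p = 0.0258, adjusted p = 0.373 by edgeR), with 11.09 and 11.62 FPKM in the control and 12.73 and 17.02 in the alcohol libraries. It was 0.17 when alcohol replicate 2 was left out and 0.52 when alcohol replicate 1 was. DUSP8 had one of -0.72 for co-treated against alcohol (unadjusted p = 0.0111, adjusted p = 0.836 by edgeR), with 7.92 and 7.98 FPKM in the alcohol and 6.27 and 3.47 in the co-treated libraries. That of DUSP8 was -0.37 without the second co-treated library and -1.19 without the first. Among the 3 phosphatases of ERK tested, DUSP6 was at 3.77 and 2.34 FPKM in the control, 2.74 and 2.03 in the alcohol and 1.32 and 1.27 in the co-treated libraries. Co-treated libraries were lowest, with log2 differences of -0.86 from alcohol and -1.31 from control (adjusted p = 0.864 and 0.120 by edgeR).

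Of 22 substrates and effectors, MKNK2, a kinase of the translation factor eIF4E, and ZFP36L1, an mRNA decay factor, had log2 differences of 0.41 and 0.30 for alcohol against control (unadjusted p = 0.0126 and 0.0254, adjusted p = 0.298 and 0.371 by edgeR). ZFP36L1 measured 162 and 156 FPKM in the control and 191 and 210 in the alcohol libraries. For co-treated against control, MKNK2 had a log2 difference of 0.35, DDIT3, the stress transcription factor CHOP, one of 0.64 and ELAVL1, an mRNA-stabilising protein, one of -0.28, with adjusted p of 0.326, 0.292 and 0.383 by edgeR. That of MKNK2 was 0.14 when the first co-treated library was left out and 0.53 when the second was. The heat shock protein HSPB1, a target of MAPKAPK2, had a log2 difference of -0.10 for alcohol against control (adjusted p = 0.898 by edgeR). In co-treated cells that of HSPB1 was -0.29 from alcohol and -0.39 from control (adjusted p = 0.919 and 0.426 by edgeR).

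Of 10 transcripts stabilised through p38 and MAPKAPK2, 8 were in the table and 3 passed the filter on low counts. IER3, an immediate early gene, measured 49.8 and 44.0 FPKM in the control, 52.2 and 40.9 in the alcohol and 29.7 and 27.3 in the co-treated libraries, lowest in both co-treated libraries. Its log2 difference was -0.72 ± 0.17 from alcohol and -0.76 ± 0.17 from control (SE, unadjusted p = 0.000851 and 0.000507, adjusted p = 0.471 and 0.0776 by edgeR). Against control the adjusted p ran from 0.0275 to 0.401 over 14 alternative settings and was 0.0483 by DESeq2. CCL2, a chemokine, had a log2 difference of -1.08 for alcohol against control at 26 and 16 counts in the control and 12 and 8 in the alcohol libraries (adjusted p = 0.435 by edgeR), and this was -0.66 without control replicate 1.

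In the ERK, JNK and ERK5 modules, 11 genes were tested. MAP2K5, the ERK5 kinase kinase, had a log2 difference of 0.77 and MAP2K1, the ERK kinase kinase MEK1, one of -0.44 for alcohol against control (adjusted p = 0.280 and 0.352 by edgeR). Without alcohol replicate 2, MAP2K5 was at 0.44 and MAP2K1 at -0.21, without alcohol replicate 1 MAP2K1 was at -0.70, and without control replicate 1 it was at -0.24. MAPK10, the JNK3 gene, had one of 0.63 for co-treated against control (adjusted p = 0.367), which was 0.34 without control replicate 1 and 0.98 without control replicate 2.

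The genes whose log2 CPM over the 6 libraries was most like that of DUSP1, among 10785 genes with a mean CPM of at least 10, were TMCO6, ARID5A, ST3GAL1, FXR2 and TOMM40L, with Pearson r of 0.966 to 0.988. For MAPK14 they were NT5C3A, DBNDD2, PLA2G15, SNRPN and CCNL1, with r of 0.949 to 0.968. The points share libraries and treatment, and 33 genes for DUSP1 and 25 for MAPK14 had an r over 0.9, so these values are a description.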

How the data were processed

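RNA was extracted from the 6 samples and sequenced, and the deposited tables of the authors give 1 expected count per gene and library, an estimated count of reads that need not be whole (33.9% were not, at a tolerance of 0.005). They also deposited the FPKM, which scales that count by transcript length and library, and the length in bases. The submitters' processing notes name HISAT2 2.0.4, Bowtie2 2.2.5, RSEM 1.2.12 and the build hg38, without their order, and whether counting used strand is not given in the sources used here. Genes not listed in a library were set to 0.

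Expected counts were rounded and tested with edgeR 4.0.16 in R 4.3.3 (quasi-likelihood F test, two-sided, TMM, filterByExpr, all 6 libraries in 1 fit, Benjamini-Hochberg adjustment over 14926 genes at 0.05). The SE is the log2 difference divided by the square root of F, and 95% intervals use the t quantile of the fit. CPM are counts scaled by TMM library size, except for the limit of detection, which was scaled by the total count alone. Intervals and limits of detection cover counting and replicate error only. DESeq2 1.42.0, limma 3.58.1 on log2(FPKM + 1) and log2(FPKM + 0.1), other scaling, other filters, a replicate block, only the libraries compared and each library left out were alternatives. The 10 genes, the gene lists and the rules were chosen with earlier results of these data known. All 10 genes are named. Of the other pathway genes, those named have an unadjusted p under 0.05 and groups that do not overlap, up to 5 in each direction, and HSPB1 was named after its value was seen. TNF and IL1B were not found, and MAP3K20 was matched as ZAK. Positions and promoters are from RefSeq on GRCh38.p14, and transcript lengths from GENCODE 29.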

Additional observations from a re-analysis of the deposited data

How the results depend on the processing

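None of the 9 genes was called at an adjusted p under 0.05 under any of 14 alternatives. DESeq2 gave no adjusted p for MAPK12, MAP2K6 and MAP3K5 for alcohol against control, so it could not call them there. Of 378 log2 differences recomputed, 348 kept their direction and 30 turned, 22 of them on leaving out a library. In the main fit, no result that turned was larger than 0.28 in size. Turned values could be larger, such as -0.49 for MAP3K5 for co-treated against alcohol without co-treated replicate 2. The other pathway genes named kept their direction in all 237 recomputed values, 5 of which, all of IER3, were called. HSPB1, though named, was not among the genes recomputed. MAPK11 was too low to test. Where a group kept 1 library, that library was assumed to vary like the others.

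Genes at an unadjusted p under 0.05 numbered 2 for alcohol against control by limma with either pseudocount, with only the libraries compared and with the replicate block, and 1 to 2 without single libraries. For co-treated against alcohol they numbered 1 with the block and with only the libraries compared, and 0 to 1 without single libraries. For co-treated against control they numbered 0 by DESeq2, 1 with no filter and 1 with only the libraries compared, and 0 to 2 without single libraries. Over all genes, the calls for alcohol against control were 72 by DESeq2, 0 and 2 by limma with pseudocounts 1 and 0.1, 2 with no filter, 26 with at least 10 counts in every library, 48 with the block, 3 with only the libraries compared and 1 to 220 without single libraries. For co-treated against alcohol they were 5 by DESeq2, 1 by limma with pseudocount 1, 1 with no filter, 0 with at least 10 counts, 5 with the block, 4 with only the libraries compared and 1 to 24 without single libraries. For co-treated against control they were 123 by DESeq2, 2 and 3 by limma, 15 with no filter, 136 with the block, 158 with only the libraries compared and 2 to 184 without single libraries. The cause of these moves was not tested. From expected counts in place of FPKM, the MAPK14 share was 70.3% in control and 71.3% in alcohol, the MAP2K3 share 70.0% in control, and the MAPKAPK2 share 71.4%, 66.2% and 65.9% in control, alcohol and co-treated cells.

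Same-numbered libraries did not deviate together (r of 0.114, -0.016 and 0.041 for control with alcohol, control with co-treated and alcohol with co-treated), so the numbers were not taken to pair the libraries. The replicate block is 1 of the 14 alternatives behind the ranges given, and it gave the lowest adjusted p of MAPKAPK3 for alcohol against control (0.178) and of MAP2K6 for alcohol and for co-treated cells against control (0.288 and 0.176). With it the unadjusted p of MAP2K6 for alcohol against control was 0.020 and that of DUSP1 for co-treated against alcohol 0.0219.

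Differences that turned were, for alcohol against control, MAPK12 (0.025 and 0.029 by limma with pseudocounts 1 and 0.1, 0.0075 with no filter), and for co-treated against control MAPK14 (0.068 and 0.071 by limma, 0.0022 with at least 10 counts) and MAP2K3 (0.022 and 0.025 by limma). Without single libraries, those for alcohol against control ran from -0.016 to 0.12 for MAPK14, from -0.16 to 0.15 for MAPK12, from -0.14 to 0.071 for MAPK13, from -0.17 to 0.69 for MAP3K5 and from -0.021 to 0.12 for MAPKAPK2. For co-treated against alcohol they ran from -0.13 to 0.015 for MAPK14, from -0.70 to 0.055 for MAPK12, from -0.30 to 0.42 for MAP2K6 and from -0.49 to 0.45 for MAP3K5. For co-treated against control they ran from -0.022 to 0.021 for MAPK14, from -0.70 to 0.051 for MAPK12, from -0.12 to 0.044 for MAP2K3, from -0.30 to 0.73 for MAP3K5 and from -0.61 to 0.38 for DUSP1.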
